A study of Homo sapiens with 9 samples.

Results

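The genes described here are 9 genes of MHC class I antigen presentation, chosen by name: the heavy chain genes HLA-B, HLA-C, HLA-E and HLA-F, the light chain gene B2M, the peptide transporter genes TAP1 and TAP2, the tapasin gene TAPBP and the transactivator gene NLRC5. All 9 were found, each once, among the 60719 genes of the deposited table, and all 9 passed the filter that kept 13879 genes (1 TPM or more in 3 or more libraries). TPM is a relative transcript abundance corrected for transcript length, so levels of different genes can be set side by side. The study asked how small extracellular vesicles (sEVs) released by breast cancer cells in therapy-induced senescence (TIS) affect other breast cancer cells. RNA was sequenced from recipient MDA-MB-231 cells, an established triple-negative human breast carcinoma line of mesenchymal type, labelled as wild type. The 3 TIS sEV libraries came from cells kept for 72 h with vesicles of donor MDA-MB-231 cells that had received 100 ng/ml nocodazole, spelled Nocodozole in the labels, a drug that blocks microtubule assembly. The 3 Cont sEV libraries came from cells kept for 72 h with vesicles of donors that had received the solvent DMSO, and the 3 No sEV libraries from cells kept for 72 h without vesicles. Both kinds of donor were treated for 72 h and then released for 72 h in medium cleared of exosomes, from which the vesicles were prepared by differential centrifugation. Donors and recipients were the same cell line, so RNA carried by vesicles and RNA made by the recipients cannot be told apart, nor can senescence of the donors and other effects of nocodazole.

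A class I molecule is a heavy chain joined to beta-2-microglobulin and a short peptide, and it shows fragments of the cell's own proteins to CD8 T cells. Peptides cut by the proteasome enter the endoplasmic reticulum through the TAP1-TAP2 transporter, where tapasin holds empty class I molecules beside the transporter until a peptide is bound. The genes are switched on together by interferon and NF-kB, and by NLRC5, which acts through the RFX, CREB/ATF and NF-Y factors bound at their promoters; carcinomas, those of the breast included, often carry low levels of several of them and are then less visible to T cells.

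The promoters of the most abundant pair and of both transporter genes are shown because they hold some of the elements through which these genes are known to be controlled together. TAP1 and TAP2 are also set against each other in the results. Each is the 250 bases before the transcription start, 5′ to 3′ on the gene's strand, from RefSeq on GRCh38.p14: HLA-B at chr6:31357180-31357429 (minus strand), B2M at chr15:44711267-44711516 (plus strand), the first of 2 starts of TAP1 at chr6:32853705-32853954 (minus strand) and TAP2 at chr6:32838740-32838989 (minus strand). Capitals mark matches, on either strand, to an IRF core (AANNGAAA), a CCAAT box (CCAAT), a CRE half-site (TGACG) and the NF-kB consensus, and overlapping matches run together.
HLA-B: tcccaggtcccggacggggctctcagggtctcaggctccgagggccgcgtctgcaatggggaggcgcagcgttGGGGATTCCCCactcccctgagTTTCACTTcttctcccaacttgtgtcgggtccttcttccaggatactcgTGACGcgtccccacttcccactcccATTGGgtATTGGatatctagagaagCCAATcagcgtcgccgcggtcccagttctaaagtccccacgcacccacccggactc
B2M: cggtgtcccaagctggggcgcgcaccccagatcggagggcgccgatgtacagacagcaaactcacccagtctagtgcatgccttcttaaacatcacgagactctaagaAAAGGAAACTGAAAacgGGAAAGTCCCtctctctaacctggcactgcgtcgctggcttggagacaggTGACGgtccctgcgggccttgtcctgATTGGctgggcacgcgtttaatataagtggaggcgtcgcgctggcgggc
TAP1: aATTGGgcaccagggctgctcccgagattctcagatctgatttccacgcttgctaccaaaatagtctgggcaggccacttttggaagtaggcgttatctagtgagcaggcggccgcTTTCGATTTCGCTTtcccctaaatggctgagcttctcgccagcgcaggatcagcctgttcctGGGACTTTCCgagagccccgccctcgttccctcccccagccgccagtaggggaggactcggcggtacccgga
TAP2: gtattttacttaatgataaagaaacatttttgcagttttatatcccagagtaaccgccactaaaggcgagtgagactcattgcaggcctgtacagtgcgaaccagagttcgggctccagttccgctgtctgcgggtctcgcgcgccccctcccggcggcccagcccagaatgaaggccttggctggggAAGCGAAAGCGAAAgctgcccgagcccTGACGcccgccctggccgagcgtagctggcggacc
Of the 9 genes, 7 had a promoter in the RefSeq table, and all 7 held an IRF core, which 20.3% of 35116 promoters of the same length hold. A CCAAT box was in 5 of the 7 (32.0% of promoters), a CRE half-site in 4 (21.2%) and the NF-kB consensus in 5 (9.96%). HLA-B, HLA-C and B2M held the IRF core, the CCAAT box and the CRE half-site, as 1.19% of promoters do. In TAP1 a pair of overlapping IRF cores lies from -134 to -121, counted back from the base before the start, and in TAP2 such a pair lies from -62 to -49. RFX elements were not searched for. The starts are those of RefSeq, and the gene intervals given below, from the GENCODE annotation, begin further upstream. That of TAP1 holds the whole window shown, and those of HLA-B, B2M and TAP2 hold part of theirs. The TAP1 promoter shown held no CRE half-site, and that of TAP2 held no CCAAT box and no NF-kB consensus. The other start of TAP1 held none of the motifs. These motifs were chosen after the sequences were seen, and a match is a string of letters, not a measured binding site.

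The libraries were alike, with Pearson's r over genes of 0.991 to 0.994 for every pair. TIS sEV replicate 3 stood apart most: the median SD of its log2 differences from the other libraries was 0.145, against 0.0899 to 0.11 for the other 8, and for HLA-F, B2M and NLRC5, whose values moved most without it, both values are given. Read depth cannot be read from TPM and is unknown. The share of summed TPM in mitochondrially encoded genes was 2.07% to 2.52% in the TIS sEV libraries, 2.58% to 3.39% in the Cont sEV libraries and 2.47% to 2.92% in the No sEV libraries, and leaving those genes out called 0 of the 9 class I genes. Of 6 marker genes of the line, 5 averaged at least 1 TPM, while SPARC averaged 0.636 TPM. Of 5 genes listed as low or absent in the line, ESR1, PGR and CDH1 were under 1 TPM in all 9 libraries, but ERBB2 and EPCAM averaged 28.1 and 23.0 TPM. Among leukocyte markers, ITGAX and NKG7 were listed at 0 in all 9 libraries and CD3E and PTPRC averaged 0.00815 and 0.511 TPM, while CD14, a monocyte marker, averaged 2.99 TPM and CD68, a lysosomal gene that carcinoma cells also express, 153 TPM. The summed TPM of the leukocyte markers was 154 to 164 in TIS sEV, 149.7 to 163 in Cont sEV and 154 to 158 in No sEV libraries. Of the endothelial markers, PECAM1 averaged 1.78 TPM and CDH5 0.0736 TPM, and their sum was 1.46 to 1.75 in TIS sEV, 2.05 to 2.25 in Cont sEV and 1.82 to 1.92 in No sEV libraries, so that the TIS sEV libraries were below all others. Of the fibroblast markers, COL1A1 averaged 8.08 TPM while PDGFRA and DCN averaged 0.00887 and 0.0202 TPM, and their sum was 7.57 to 9.28 in TIS sEV, 7.23 to 7.72 in Cont sEV and 7.88 to 8.94 in No sEV libraries. The part of these markers in the results was not tested.

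Fitted means of the 9 class I genes differed between groups by at most 0.20 in log2 fold change, for HLA-F, and none of these differences passed the test. In TIS sEV against Cont sEV, the comparison that asks about the senescent source, 0 of the 9 passed limma's moderated test at an adjusted p of 0.05, where 13 of all genes tested did (0.0937%). In TIS sEV against No sEV 0 of 9 passed, where 1 gene did (0.00721%), and in Cont sEV against No sEV, which asks about vesicles as such, 0 of 9 passed and no gene of any kind did (0.0%). A moderated F test over the 3 groups also called 0 of 9, where 3 genes passed (0.0216%). At an unadjusted p under 0.05 stood 1 member (TAP2) in TIS sEV against Cont sEV, where 10.0% of genes did, 0 members in TIS sEV against No sEV (7.97%), and 1 member, TAP2 again, in Cont sEV against No sEV (837 genes, 6.03%). The first and the last of these share the Cont sEV libraries, so the TAP2 values in them are not independent.

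Means were higher for 5 members and lower for 4 in each of the 3 comparisons. This split depends on how libraries are scaled. After median-of-ratios scaling HLA-B, HLA-C and HLA-E turned lower in TIS sEV against Cont sEV. So did HLA-C, HLA-E, TAP1 and NLRC5 in TIS sEV against No sEV, and TAPBP in Cont sEV against No sEV. Of all genes tested, 59.6% were higher in TIS sEV against Cont sEV, 66.7% in TIS sEV against No sEV and 56.5% in Cont sEV against No sEV. The median log2 fold change of the members, on the log2(TPM + 1) scale used throughout, was 0.0085 in TIS sEV against Cont sEV, beside 0.02 over all genes tested. It was 0.0023 in TIS sEV against No sEV, beside 0.03 over all genes, and 0.0032 in Cont sEV against No sEV, beside 0.01. After median-of-ratios scaling the member median was -0.0129 in TIS sEV against Cont sEV, beside 0.00054 over all genes. In TIS sEV against No sEV it was then -0.03225, beside -0.00025. The 95% confidence interval reached less than 0.14 to either side for 7 of the 9 members, in every comparison; HLA-F and NLRC5, both of low level, had intervals of 0.30 and 0.33 to either side. The lowest adjusted p of a member was 0.335 in TIS sEV against Cont sEV, 0.781 in TIS sEV against No sEV and 0.789 in Cont sEV against No sEV.

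**Figure D1:**
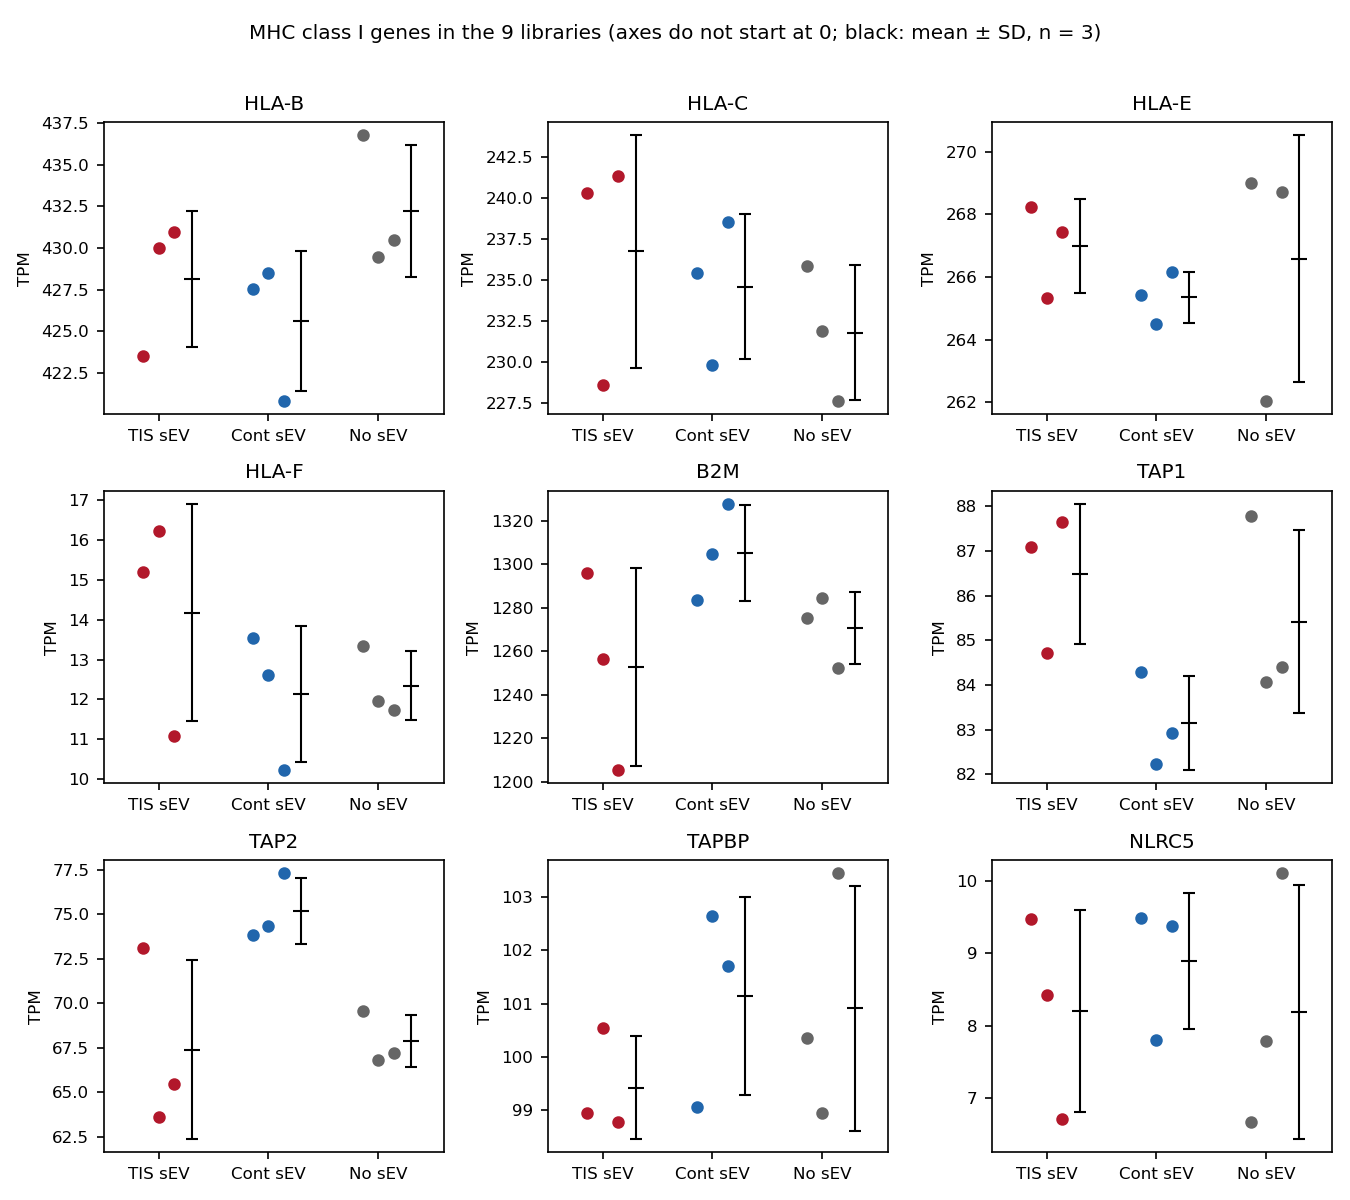
TPM of each of the 9 genes (vertical axes, which do not start at 0) in the TIS sEV, Cont sEV and No sEV libraries; points are libraries, black marks the mean ± SD (n = 3). The groups overlap in most panels, while the 3 TAP2 values in Cont sEV cells (73.8 to 77.3 TPM) lie above the other 6.

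HLA-B encodes a classical heavy chain, one of those that present peptides to CD8 T cells, and was the most abundant of the 4 heavy chain genes. It was at 423, 430.0 and 431 TPM in TIS sEV cells, at 428, 428 and 421 TPM in Cont sEV cells and at 437, 429 and 430.4 TPM in No sEV cells. The TIS sEV libraries overlapped both other groups, and the 3 Cont sEV libraries all lay just below the 3 No sEV libraries. Its log2 fold change was 0.01 in TIS sEV against Cont sEV (95% confidence interval -0.04 to 0.06, limma, adjusted p = 0.930) and -0.01 in TIS sEV against No sEV (-0.06 to 0.03, adjusted p = 0.902). In Cont sEV against No sEV it was -0.02 (-0.07 to 0.03, adjusted p = 0.927). HLA-B (ENSG00000234745.12) is annotated on chromosome 6 from 31269491 to 31357188, minus strand.

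HLA-C encodes another classical heavy chain, which is also read by inhibitory receptors of natural killer (NK) cells. It was at 240.3, 229 and 241 TPM in TIS sEV cells, 235, 229.8 and 239 TPM in Cont sEV cells and 236, 232 and 228 TPM in No sEV cells. The lowest TIS sEV library lay among the lowest of all 9, so the groups overlapped in every comparison. The log2 fold change was 0.01 in TIS sEV against Cont sEV (-0.05 to 0.08, limma, adjusted p = 0.926), 0.03 in TIS sEV against No sEV (adjusted p = 0.830) and 0.02 in Cont sEV against No sEV (adjusted p = 0.973). HLA-C (ENSG00000204525.17) is annotated on chromosome 6 from 31268749 to 31272130, minus strand, so its interval overlaps that of HLA-B. Of the 31-base words of the annotated HLA-C transcripts, 10.4% also occur in HLA-B, and 8.86% of those of HLA-B occur in HLA-C. Counted over all other annotated genes, the shares were 15.9% for HLA-C and 12.2% for HLA-B. Heavy chain genes are polymorphic and reads were assigned against a reference, so the split of reads between these genes, and their levels relative to each other, carry that uncertainty.

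HLA-E encodes a nonclassical heavy chain that carries signal peptides of other class I chains and is read by NKG2A on NK cells. It was at 268, 265 and 267 TPM in TIS sEV cells, 265, 264.5 and 266 TPM in Cont sEV cells and 269, 262 and 269 TPM in No sEV cells. All 9 libraries lay between 262 and 269 TPM, and the groups overlapped in every comparison. The log2 fold change was 0.01 in TIS sEV against Cont sEV (-0.04 to 0.06, limma, adjusted p = 0.931), 0.0023 in TIS sEV against No sEV (-0.05 to 0.05, adjusted p = 0.992) and -0.0065 in Cont sEV against No sEV (-0.06 to 0.04, adjusted p = 0.984). HLA-E (ENSG00000204592.9) lies on chromosome 6 from 30489467 to 30494205, plus strand, and 3.70% of its 31-base words occur in another of the 9 genes. Counted over all other annotated genes, that share was 10.3%.

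HLA-F, whose protein is a nonclassical class I molecule that can reach the surface without peptide and bind NK receptors, was the scarcest heavy chain. It was at 15.2, 16.2 and 11.1 TPM in TIS sEV cells, 13.5, 12.6 and 10.2 TPM in Cont sEV cells and 13.3, 12.0 and 11.7 TPM in No sEV cells. TIS sEV replicates 1 and 2 lay above all other libraries and TIS sEV replicate 3 below all but 1, so the groups overlapped. The log2 fold change was 0.20 in TIS sEV against Cont sEV (-0.10 to 0.50, limma, adjusted p = 0.676) and 0.17 in TIS sEV against No sEV (-0.13 to 0.47, adjusted p = 0.781). Without TIS sEV replicate 3 these were 0.36 (adjusted p = 0.443) and 0.33 (adjusted p = 0.520). In Cont sEV against No sEV the log2 fold change was -0.03 (-0.33 to 0.27, adjusted p = 0.987). HLA-F (ENSG00000204642.14) lies on chromosome 6 from 29722775 to 29738528, plus strand.

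Summed over the 4 heavy chain genes, the level was 946 ± 5.43 TPM in TIS sEV cells, 938 ± 3.69 TPM in Cont sEV cells and 943 ± 10.5 TPM in No sEV cells (SD, n = 3 each). HLA-B made up 45.3 ± 0.518% of that sum in TIS sEV cells, 45.4 ± 0.418% in Cont sEV cells and 45.8 ± 0.0927% in No sEV cells.

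B2M, the light chain that every class I heavy chain needs to fold and reach the surface, was the most abundant of the 9. It was at 1296, 1257 and 1205 TPM in TIS sEV cells, 1284, 1305 and 1328 TPM in Cont sEV cells and 1275, 1284 and 1252 TPM in No sEV cells. TIS sEV replicates 2 and 3 lay below the Cont sEV range and TIS sEV replicate 1 inside it. In TIS sEV against Cont sEV the log2 fold change was -0.06 (-0.12 to 0.0038, limma, adjusted p = 0.528), or -0.03 without TIS sEV replicate 3 (adjusted p = 0.771) and -0.02 after quantile normalization (adjusted p = 0.888). It was -0.02 in TIS sEV against No sEV (-0.08 to 0.04, adjusted p = 0.882), or 0.0064 without TIS sEV replicate 3 (adjusted p = 0.977), and 0.04 in Cont sEV against No sEV (-0.02 to 0.10, adjusted p = 0.893). B2M (ENSG00000166710.21) lies on chromosome 15 from 44711487 to 44718877, plus strand, outside the MHC, and none of its 31-base words occur in the other 8 genes. Counted over all other annotated genes, the share was 1.55%. The summed heavy chain TPM over the B2M TPM was 0.756 ± 0.0298 in TIS sEV cells, 0.719 ± 0.0146 in Cont sEV cells and 0.742 ± 0.0121 in No sEV cells (SD, n = 3 each), with overlapping ranges of TIS sEV and Cont sEV.

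TAP1 and TAP2 encode the paired chains of the transporter that carries peptides into the endoplasmic reticulum, and neither works without the other. TAP1 was at 87.1, 84.7 and 87.7 TPM in TIS sEV cells, 84.3, 82.2 and 82.9 TPM in Cont sEV cells and 87.8, 84.1 and 84.4 TPM in No sEV cells. All 3 TIS sEV libraries lay above all 3 Cont sEV libraries, by a narrow margin. The log2 fold change was 0.06 in TIS sEV against Cont sEV (-0.01 to 0.12, limma, adjusted p = 0.596), 0.02 in TIS sEV against No sEV (-0.05 to 0.09, adjusted p = 0.911) and -0.04 in Cont sEV against No sEV (-0.11 to 0.03, adjusted p = 0.905). TAP1 (ENSG00000168394.11) lies on chromosome 6 from 32845209 to 32853978, minus strand.

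TAP2 had the lowest fold change of the 9 in TIS sEV against Cont sEV. It was at 73.1, 63.6 and 65.5 TPM in TIS sEV cells, 73.8, 74.4 and 77.3 TPM in Cont sEV cells and 69.6, 66.8 and 67.2 TPM in No sEV cells. The 3 Cont sEV libraries were the highest of the 9 and overlapped neither other group, although TIS sEV replicate 1 came close to them. TIS sEV averaged 67.4 ± 5.02 TPM, Cont sEV 75.2 ± 1.86 TPM and No sEV 67.9 ± 1.47 TPM (SD, n = 3 each).

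In TIS sEV against Cont sEV the log2 fold change of TAP2 was -0.16 (SE 0.05, -0.27 to -0.05), with an unadjusted p of 0.0101 in limma and an adjusted p of 0.335, so it did not pass, and it ranked 417th of the 13879 genes by p. In Cont sEV against No sEV it was 0.14 (SE 0.05, 0.03 to 0.26), with an unadjusted p of 0.0155 in limma and an adjusted p of 0.789. In TIS sEV against No sEV it was -0.01 (-0.12 to 0.10, adjusted p = 0.968). With 1 library left out at a time, the log2 fold change in TIS sEV against Cont sEV lay between -0.22, without TIS sEV replicate 1, and -0.12, without TIS sEV replicate 2, and over all alternatives its adjusted p lay between 0.155 and 0.730. Non-overlap of 3 against 3 libraries was common: 15.4% of all genes tested showed it in TIS sEV against Cont sEV, where 2 of the 9 members did (TAP1 and TAP2), and 11.2% in Cont sEV against No sEV, where 2 did (TAP2 and HLA-B). In TIS sEV against No sEV 14.1% of genes and 0 members showed it.

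**Figure D2:**
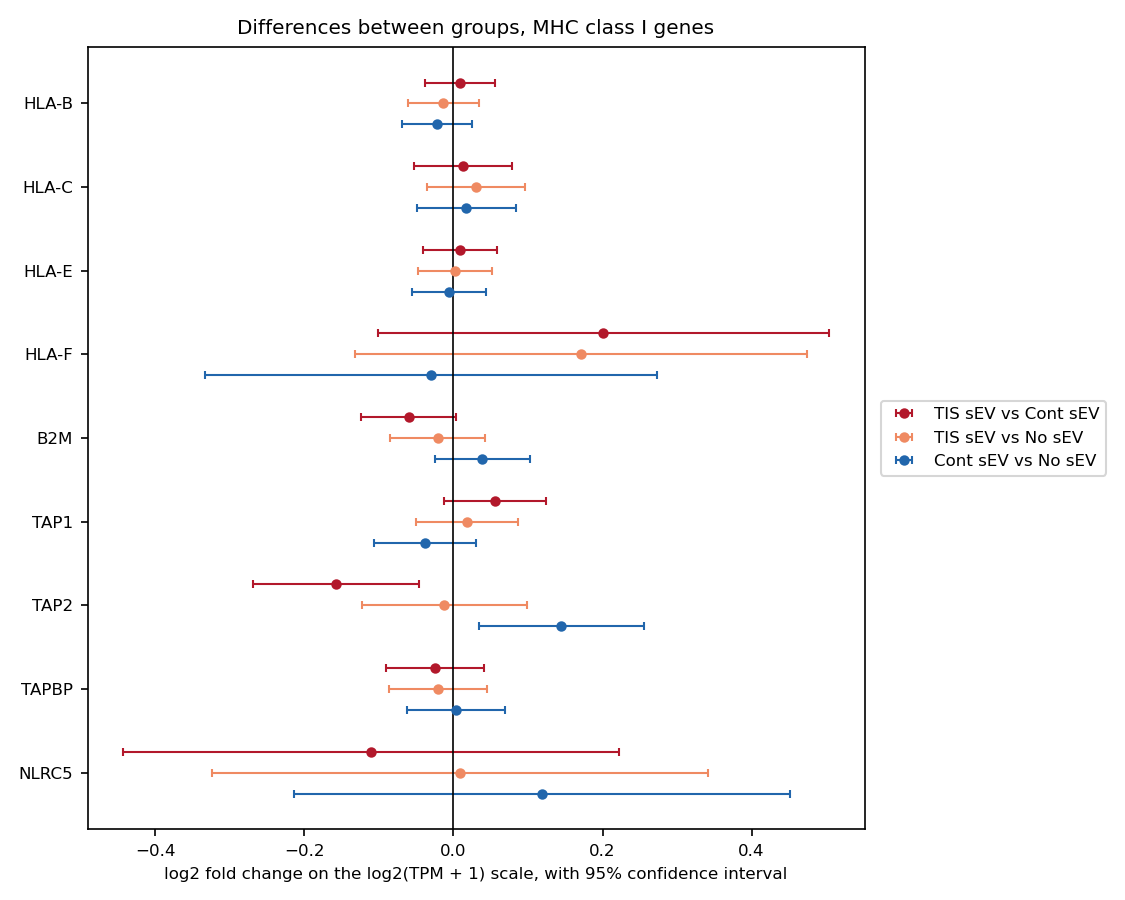
Log2 fold change (horizontal axis, log2(TPM + 1) scale) of each gene in the 3 comparisons, with points for the fitted value and bars for the 95% confidence interval. All intervals cross 0 except those of TAP2 in TIS sEV against Cont sEV (-0.27 to -0.05) and in Cont sEV against No sEV (0.03 to 0.26), and those of HLA-F and NLRC5 are the widest.

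The share of TAP2 reads is uncertain because another annotated gene lies over it. TAP2 (ENSG00000204267.16) spans chromosome 6 from 32821833 to 32838780, minus strand, within a gene without a symbol here, ENSG00000250264.1, annotated as protein-coding from 32813767 to 32838822 on the same strand. Of the 31-base words of TAP2 transcripts, 31.7% occur in another gene, and 76.1% of those of the overlapping gene occur in TAP2. The overlapping gene was at 10.0, 10.9 and 11.7 TPM in TIS sEV cells, 5.41, 6.83 and 6.45 TPM in Cont sEV cells and 8.71, 6.93 and 10.4 TPM in No sEV cells. Its 3 Cont sEV values were the lowest of the 9, where those of TAP2 were the highest. Its log2 fold change was 0.72 in TIS sEV against Cont sEV (SE 0.13, limma, adjusted p = 0.101) and -0.41 in Cont sEV against No sEV (SE 0.13, adjusted p = 0.789), neither of which passed. In TIS sEV against No sEV it was 0.31 (SE 0.13, limma, adjusted p = 0.610), which did not pass either, while that of TAP2 was -0.01.

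Added together, TAP2 and the overlapping gene were at 83.1, 74.5 and 77.2 TPM in TIS sEV cells, 79.2, 81.2 and 83.7 TPM in Cont sEV cells and 78.3, 73.8 and 77.6 TPM in No sEV cells. The TIS sEV and Cont sEV values of the sum overlapped, and the 3 Cont sEV values still lay above the 3 No sEV values. With the sum in place of both genes, an alternative chosen after the values were seen, the log2 fold change was -0.06 in TIS sEV against Cont sEV (limma, adjusted p = 0.730), 0.03 in TIS sEV against No sEV (adjusted p = 0.895) and 0.09 in Cont sEV against No sEV (adjusted p = 0.825). How salmon split the shared reads between both genes was not tested, since the reads were not used here.

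**Figure D3:**
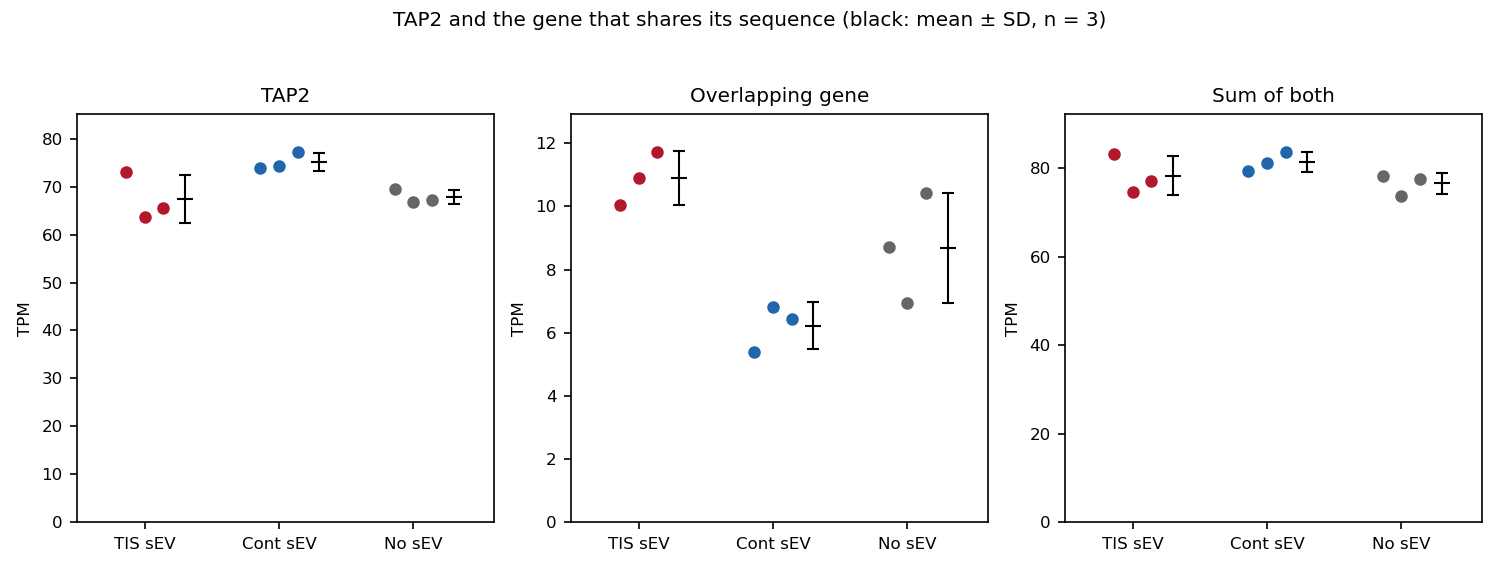
TPM (vertical axes from 0) of TAP2, of the overlapping gene ENSG00000250264.1 and of their sum in each library of the TIS sEV, Cont sEV and No sEV groups; black marks the mean ± SD (n = 3). The Cont sEV values are the highest for TAP2 (73.8 to 77.3 TPM) and the lowest for the overlapping gene (5.41 to 6.83 TPM), and in the sum they overlap the TIS sEV values.

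The ratio of TAP2 to TAP1, computed after the values were seen, was 0.839, 0.751 and 0.747 in TIS sEV cells, 0.876, 0.904 and 0.932 in Cont sEV cells and 0.793, 0.795 and 0.797 in No sEV cells. The Cont sEV ratios were the highest of the 9, and the No sEV ratios lay inside the TIS sEV range. This ratio carries the uncertainty of the TAP2 level given above.

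TAPBP encodes tapasin, which bridges class I molecules and the transporter. It was at 98.9, 100.5 and 98.8 TPM in TIS sEV cells, 99.1, 103 and 102 TPM in Cont sEV cells and 100.3, 98.9 and 103 TPM in No sEV cells. The groups overlapped in every comparison. The log2 fold change was -0.02 in TIS sEV against Cont sEV (-0.09 to 0.04, limma, adjusted p = 0.832), -0.02 in TIS sEV against No sEV (-0.09 to 0.04, adjusted p = 0.884) and 0.0032 in Cont sEV against No sEV (-0.06 to 0.07, adjusted p = 0.994). TAPBP (ENSG00000231925.12) lies on chromosome 6 from 33299694 to 33314387, minus strand.

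NLRC5, the transactivator that raises transcription of class I genes, had the lowest level of the 9. It was at 9.48, 8.43 and 6.71 TPM in TIS sEV cells, 9.50, 7.81 and 9.37 TPM in Cont sEV cells and 6.67, 7.79 and 10.1 TPM in No sEV cells. Libraries of 1 group differed as widely as libraries of different groups. The log2 fold change was -0.11 in TIS sEV against Cont sEV (-0.44 to 0.22, limma, adjusted p = 0.858), or 0.01 without TIS sEV replicate 3 (adjusted p = 0.988). It was 0.0085 in TIS sEV against No sEV (-0.32 to 0.34, adjusted p = 0.996), or 0.13 without TIS sEV replicate 3 (adjusted p = 0.877), and 0.12 in Cont sEV against No sEV (-0.21 to 0.45, adjusted p = 0.954). NLRC5 (ENSG00000140853.16) lies on chromosome 16 from 56989485 to 57083531, plus strand, and only 0.287% of its 31-base words occur in another gene.

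The order of the 9 levels was the same in every library, and the ranges of neighbours in that order did not overlap. Over the 9 libraries B2M averaged 1276 TPM, followed by HLA-B at 429, HLA-E at 266 and HLA-C at 234 TPM. Then came TAPBP at 100.5, TAP1 at 85.0 and TAP2 at 70.1 TPM, and last HLA-F at 12.9 and NLRC5 at 8.43 TPM. By mean TPM, B2M ranked 127th of the 13879 genes tested, HLA-B 306th and NLRC5 9268th. The 9 genes held 0.246 ± 0.00489% of the summed TPM in TIS sEV cells, 0.251 ± 0.00215% in Cont sEV cells and 0.248 ± 0.00193% in No sEV cells (SD, n = 3 each).

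The 9 genes differed widely in their spread over the libraries. The coefficient of variation (CV, the SD over the mean) across all 9 libraries was 0.852% for HLA-E and 1.06% for HLA-B, 1.75% for TAPBP, 2.19% for HLA-C, 2.38% for TAP1, 2.76% for B2M and 6.67% for TAP2, and 15.0% for both HLA-F and NLRC5. Among the 3386 genes that averaged 50 TPM or more, the CV of HLA-E ranked 1st from the lowest and that of HLA-B 7th, while that of TAP2 ranked 3101st. These ranks were looked up after the values were seen and depend on how libraries are scaled. After median-of-ratios scaling the CV of HLA-E was 1.60% and ranked 74th, and that of HLA-B was 2.10% and ranked 285th. With 1 library left out at a time HLA-E ranked between 2nd and 5th and HLA-B between 3rd and 19th.

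**Figure D4:**
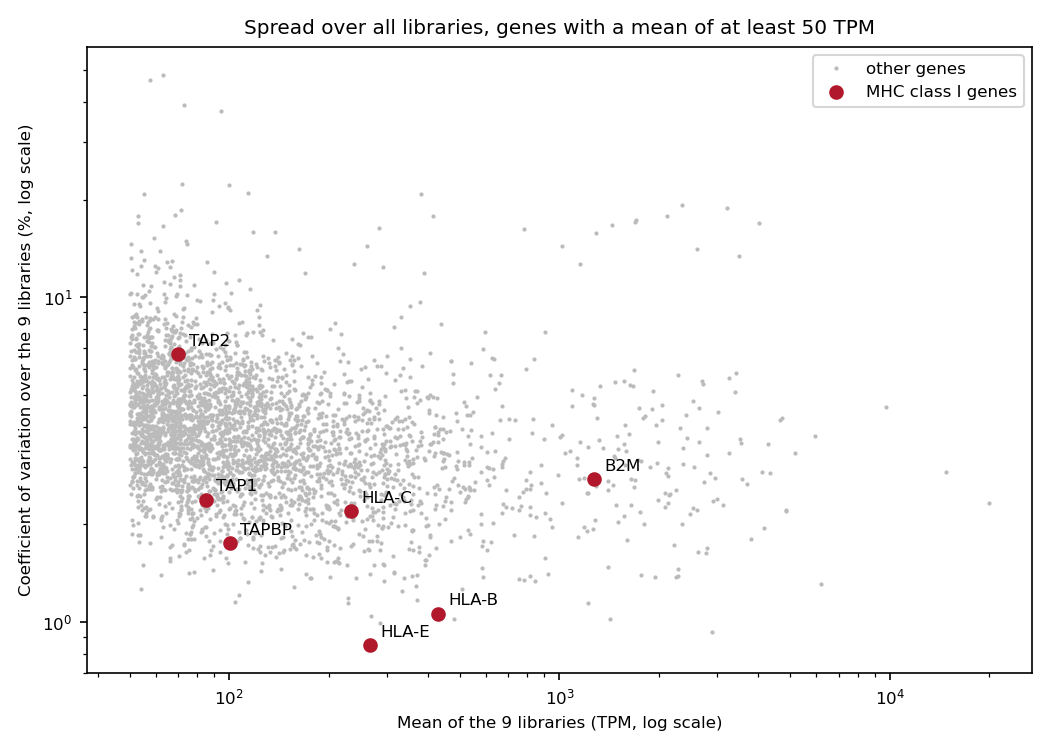
Coefficient of variation over the 9 libraries (vertical axis, percent, log scale) against mean TPM (horizontal axis, log scale) for the 3386 genes that averaged 50 TPM or more; red points are the 7 class I genes at that level and grey points are the other genes. HLA-E (0.852%) is the lowest point of the plot and TAP2 (6.67%) lies high among genes of its level.

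The other genes of the pathway were read from 7 lists of 86 genes by role, 80 of which were tested. In each of the 3 comparisons 0 of the 80 passed. At an unadjusted p under 0.05 stood 9 of them in TIS sEV against Cont sEV, where 10.0% of all genes did, 10 in TIS sEV against No sEV (7.97%) and 5 in Cont sEV against No sEV (6.03%). Without overlap in TIS sEV against Cont sEV were 11 higher and 8 lower of the 80, where 15.4% of all genes were. In TIS sEV against No sEV these were 6 and 3 (14.1%), and in Cont sEV against No sEV 6 and 3 (11.2%). Non-overlap is not mentioned below for every gene that showed it. The list medians of the log2 fold change lay between -0.07 and 0.05 in TIS sEV against Cont sEV, beside 0.02 over all genes. In that comparison 48 means of the 80 were higher and 32 lower, where 59.6% of all genes were higher. The counts of higher and lower means of the lists below stand beside that share.

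Peptide supply, by the immunoproteasome, its activator and the trimming aminopeptidases, had a median of 0.05 over 10 genes in TIS sEV against Cont sEV, with 7 means higher and 3 lower. PSME2, a subunit of the proteasome activator PA28, was at 281 ± 6.06 TPM in TIS sEV cells against 265 ± 4.91 in Cont sEV cells (limma, adjusted p = 0.372), and its partner PSME1 was at 255 ± 2.68 against 250.04 ± 8.06 TPM (adjusted p = 0.803). The cytosolic aminopeptidase gene NPEPPS was at 82.0 ± 1.54 TPM in TIS sEV cells, 75.1 ± 5.11 in Cont sEV cells and 73.2 ± 0.483 in No sEV cells, the 3 TIS sEV libraries above all others (adjusted p = 0.385 against Cont sEV and 0.492 against No sEV). ERAP1, which trims peptides inside the endoplasmic reticulum, was at 35.6 ± 4.03 TPM in TIS sEV cells, 36.6 ± 1.77 in Cont sEV cells and 29.8 ± 1.97 in No sEV cells (adjusted p = 0.789 in Cont sEV against No sEV).

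Peptide loading and its chaperones had a median of 0.0047 over 7 genes in TIS sEV against Cont sEV. The lectin chaperone CALR was at 1702 ± 58.8 TPM in TIS sEV cells against 1666 ± 28.9 in Cont sEV cells, CANX at 1162 ± 30.7 against 1159 ± 27.3, HSPA5 at 2263 ± 24.5 against 2222 ± 13.6 and the disulfide isomerase PDIA3 at 535 ± 6.42 against 520.4 ± 9.78 TPM. The TIS sEV libraries of HSPA5 and of PDIA3 lay above the Cont sEV libraries without overlap. The tapasin relative TAPBPL was at 1.72 ± 0.273 TPM in TIS sEV cells against 2.28 ± 0.346 in Cont sEV cells (limma, adjusted p = 0.604), without overlap but at a very low level.

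Among 24 genes of class I transcription and interferon signalling, 17 means were higher and 7 lower in TIS sEV against Cont sEV, with a median of 0.03. Of all genes tested, 59.6% were higher in that comparison. RFX5, a subunit of the RFX factor through which NLRC5 acts, was at 42.3 ± 0.910 TPM in TIS sEV cells, 40.7 ± 0.873 in Cont sEV cells and 38.4 ± 1.12 in No sEV cells (limma, adjusted p = 0.469 in TIS sEV against No sEV). IRF1, a factor known to bind interferon response elements, was at 35.6 ± 0.548 TPM in TIS sEV cells against 33.1 ± 0.817 in Cont sEV cells, without overlap (adjusted p = 0.511). The NF-kB subunit RELA was at 105 ± 2.67 TPM in TIS sEV cells against 105 ± 2.94 in Cont sEV cells, and the interferon signal transducer STAT3 at 81.4 ± 3.09 against 79.1 ± 3.8 TPM. The receptor-associated kinase TYK2 was at 75.9 ± 10.6 TPM in TIS sEV cells against 64.5 ± 4.39 in No sEV cells (limma, adjusted p = 0.589). Its TIS sEV libraries were at 71.9, 88.0 and 67.9 TPM and overlapped the No sEV libraries. The TYK2 inhibitor SOCS1 was at 1.31 ± 0.112 in TIS sEV cells against 1.04 ± 0.0548 TPM in Cont sEV cells (adjusted p = 0.659).

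Of 10 genes listed under turnover and surface removal of class I molecules, 7 means were higher and 3 lower in TIS sEV against Cont sEV, with a median of 0.02. Whether each of them acts on class I molecules in these cells was not tested, and this holds for SPPL2A too. The intramembrane protease SPPL2A was at 55.6 ± 3.69 TPM in TIS sEV cells, 62.6 ± 2.13 in Cont sEV cells and 60.4 ± 1.27 in No sEV cells (limma, adjusted p = 0.287 against Cont sEV and 0.611 against No sEV), the 3 TIS sEV libraries below all others. DERL1, a channel component through which misfolded chains leave the endoplasmic reticulum, was at 96.9 ± 2.72 TPM in TIS sEV cells, 90.0 ± 3.15 in Cont sEV cells and 90.1 ± 3.63 in No sEV cells (adjusted p = 0.424 against Cont sEV and 0.588 against No sEV), the 3 TIS sEV libraries above all others. STT3B, which attaches the sugar chain, was at 156 ± 6.58 TPM in TIS sEV cells against 152 ± 2.08 in Cont sEV cells.

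The class II pathway, which presents extracellular proteins to CD4 T cells, had a median of -0.07 over 10 genes in TIS sEV against Cont sEV, with 3 means higher and 7 lower. The invariant chain gene CD74 was at 232 ± 8.39 TPM in TIS sEV cells, 250 ± 6.71 in Cont sEV cells and 235 ± 6.15 in No sEV cells, with the 3 Cont sEV libraries above all others (limma, adjusted p = 0.337 in TIS sEV against Cont sEV and 0.807 in Cont sEV against No sEV). HLA-DRA was at 51.1 ± 1.23 TPM in TIS sEV cells against 53.9 ± 1.5 in Cont sEV cells (adjusted p = 0.574), and HLA-DRB1 at 19.6 ± 1.55 against 20.9 ± 1.45 TPM (adjusted p = 0.708). HLA-DPB1 was at 9.11 ± 0.689 TPM in TIS sEV cells, 8.61 ± 0.746 in Cont sEV cells and 10.8 ± 0.939 in No sEV cells (adjusted p = 0.588 in TIS sEV against No sEV and 0.789 in Cont sEV against No sEV), so that the Cont sEV mean was the lowest. Of this list HLA-DQA1 was below the level tested.

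Ligands read by T and NK cells had a median of 0.02 over 14 tested genes in TIS sEV against Cont sEV. CD274, the gene of the checkpoint ligand PD-L1, was at 38.3 ± 1.89 TPM in TIS sEV cells, 34.4 ± 1.04 in Cont sEV cells and 37.3 ± 2.03 in No sEV cells, so that the Cont sEV mean was the lowest (limma, adjusted p = 0.378 in TIS sEV against Cont sEV). The adhesion ligand ICAM1 was at 261 ± 2.22 TPM in TIS sEV cells, 275 ± 4.51 in Cont sEV cells and 272 ± 6.69 in No sEV cells, the 3 TIS sEV libraries below all others (adjusted p = 0.379 against Cont sEV and 0.626 against No sEV). CD58, another adhesion ligand, was at 49.9 ± 5.65 TPM in TIS sEV cells against 55.9 ± 1.94 in Cont sEV cells (adjusted p = 0.467), and MICA, a stress ligand of NK cells, at 128 ± 3.23 against 125 ± 1.76 TPM (adjusted p = 0.734). Among 5 tested class I-like genes, PROCR was at 49.4 ± 3.53 TPM in TIS sEV cells against 47.9 ± 1.48 in Cont sEV cells, FCGRT, the neonatal Fc receptor chain that also pairs with B2M, at 31.4 ± 0.804 against 32.4 ± 1.15, and AZGP1 at 4.64 ± 0.251 against 5.27 ± 0.0850 TPM (adjusted p = 0.687).

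Without TIS sEV replicate 3, a choice made after the data were seen, none of the pathway genes tested passed in either comparison with TIS sEV, and the lowest adjusted p was 0.491. For CD58 the log2 fold change in TIS sEV against Cont sEV was -0.17 over all libraries and -0.09 without that library, that of HLA-DRB1 -0.09 and -0.16, and that of ERAP1 -0.05 and -0.10. That of TAPBPL in the same comparison was -0.27 over all libraries and -0.19 without that library. In TIS sEV against No sEV that of SPPL2A was -0.12 over all libraries and -0.06 without that library, and that of TYK2 0.225 and 0.300.

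**Figure D5:**
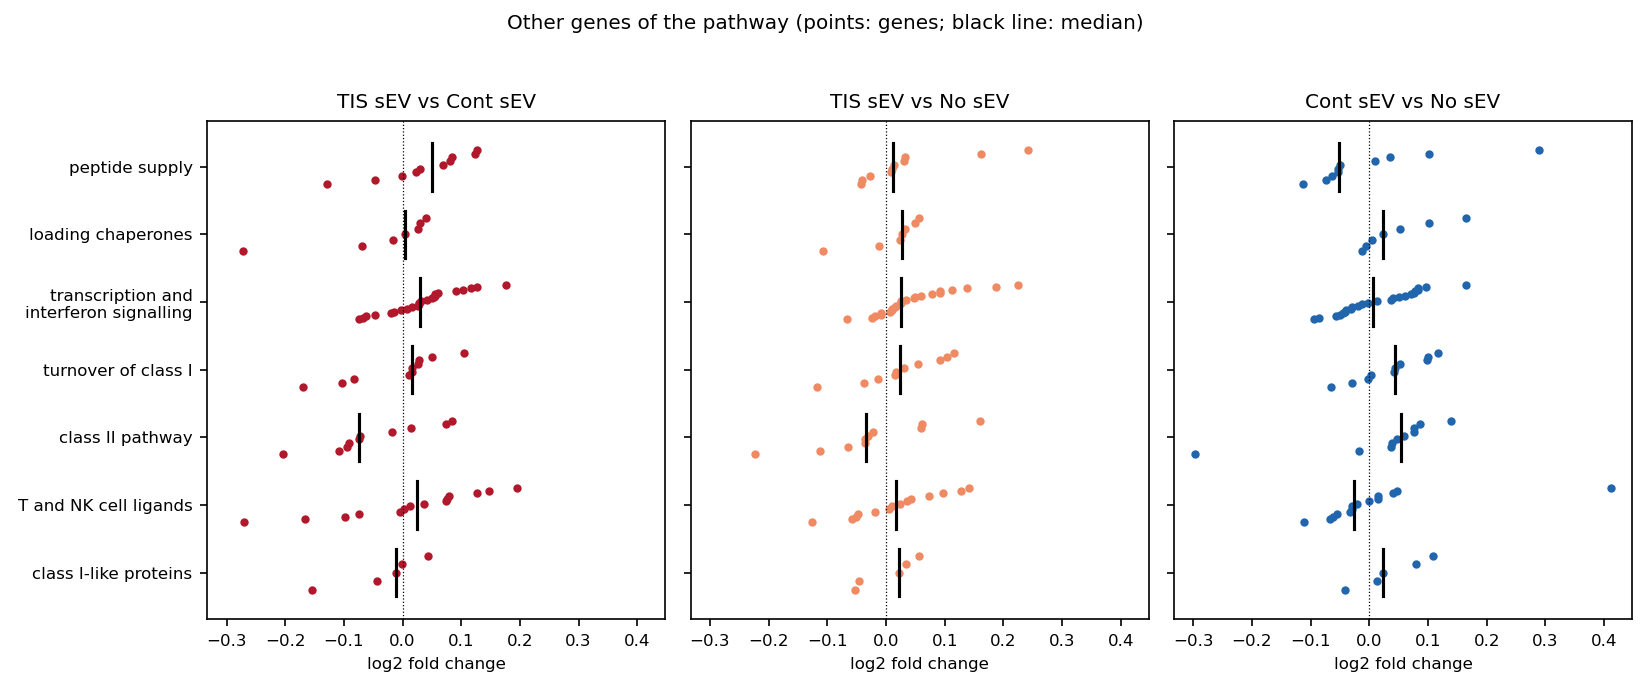
Log2 fold change (horizontal axes, log2(TPM + 1) scale) of the 80 tested pathway genes in the 3 comparisons; points are genes, rows are the 7 lists and black lines are list medians. Most points lie within 0.2 of 0, and 0 of the 80 genes passed the test in any comparison.

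As a description of likeness, each member's log2 levels were standardized over the 9 libraries and averaged. This mean profile ran from -0.541 in No sEV replicate 2 to 0.469 in TIS sEV replicate 1. It lay between -0.305 and 0.469 in the TIS sEV libraries, between -0.0754 and 0.0948 in the Cont sEV libraries and between -0.541 and 0.362 in the No sEV libraries, so it did not separate the groups. Of 10474 other genes that averaged 5 TPM or more, those most like the profile over the 9 libraries were TSPAN9 (Pearson's r of 0.942), PFKFB3 (0.932), WDR54 (0.924), RAB11B (0.924) and RAB43 (0.918). They are the highest of 10474 values over only 9 libraries, and whether they exceed what chance gives was not tested. The profile also averages members whose fold changes differed in sign, so likeness to it is not likeness to each member.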

How the data were processed

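Total RNA of 9 MDA-MB-231 libraries, 3 per group, was sequenced on an Illumina protocol, per the labels. The authors deposited gene-level TPM, made per the submitters' processing notes on GRCh38.p13 with Salmon 1.4.0, FastQC 0.11.9, DESeq2 1.28.0 and Trim Galore 0.6.6; for the gene annotation no release is stated in the sources used here. TPM holds no read depth, so no count model was used. All 9 value columns were used (0 were not). Symbols were matched by Ensembl ID for 60463 of 60719 genes (99.6%). Locations and the shared 31-base words come from GENCODE 29 on GRCh38, promoters from RefSeq on GRCh38.p14. Reads that fit several heavy chain genes are divided by salmon's model, and TPM values are relative, so a large change elsewhere would shift all of them.

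Groups and replicate numbers came from the labels. Genes at 1 TPM or more in 3 or more libraries (13879) were fitted as log2(TPM + 1), which understates changes of low genes, with limma 3.58.1 in R 4.3.3: 3 group means over all 9 libraries, a variance trend, two-sided moderated tests, and Benjamini-Hochberg adjustment over all genes at 0.05. The steps were tested on simulated data. Nothing in the labels says that replicates came from separate cultures, so the p-values may measure technical spread only. Alternatives were other pseudocounts, filters, scalings, variance priors and weights, the replicate number as a block, only the libraries compared, and leaving out each library. The 9 genes and the pathway lists were chosen with earlier results of these data known. Genes named are the 9, and of each list any gene that passed, the 2 of smallest p in TIS sEV against Cont sEV and against No sEV, and the 2 of highest mean TPM. Likeness was Pearson's r with the mean standardized profile. Figures were drawn with matplotlib 3.10.9.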

Additional observations from a re-analysis of the deposited data

How the results depend on the processing

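Under 20 other ways of processing the data, 0 of 540 recomputed values of the 9 genes passed the threshold, and the lowest adjusted p was 0.155. The sign of the log2 fold change turned in 20 of 243 values with 1 library left out and in 21 of 297 others, the largest reported value that turned being 0.12, for NLRC5 in Cont sEV against No sEV. After median-of-ratios scaling, values that turned in TIS sEV against Cont sEV were -0.0129 for HLA-B, -0.00856 for HLA-C and -0.01255 for HLA-E, and in TIS sEV against No sEV -0.00441 for HLA-C, -0.03225 for HLA-E, -0.0164 for TAP1 and -0.0222 for NLRC5; TAPBP turned to -0.00984 in Cont sEV against No sEV. After quantile normalization they were -0.00279 for HLA-B and -0.00761 for HLA-E in TIS sEV against Cont sEV, -0.0053 for HLA-E, 0.0164 for B2M, -0.00606 for TAP1 and -0.0353 for NLRC5 in TIS sEV against No sEV, and 0.0023 for HLA-E and -0.00109 for TAPBP in Cont sEV against No sEV. With mitochondrial genes left out they were -0.00308 for HLA-B and -0.00274 for HLA-E in TIS sEV against Cont sEV and -0.00382 for HLA-E in TIS sEV against No sEV. With library weights they were -0.0102 for NLRC5 in TIS sEV against No sEV and -0.00299 for TAPBP in Cont sEV against No sEV. With the overlapping gene added, an alternative chosen after seeing the data, TAP2 was at 0.03065 in TIS sEV against No sEV. The median over the 9 genes moved after median-of-ratios scaling to -0.0129 in TIS sEV against Cont sEV and -0.03225 in TIS sEV against No sEV, where the median over all genes moved to 0.00054 and -0.00025.

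Leaving out each library gave, in TIS sEV against Cont sEV, -0.00197 to 0.0378 for HLA-C and -0.2097 to 0.0116 for NLRC5; in TIS sEV against No sEV, -0.01002 to 0.00878 for HLA-E, -0.0459 to 0.0064 for B2M, -0.0716 to 0.027 for TAP2 and -0.113 to 0.154 for NLRC5; in Cont sEV against No sEV, -0.108 to 0.0783 for HLA-F, -0.0107 to 0.0211 for TAPBP and -0.0029 to 0.264 for NLRC5. Over all genes, the 13 calls in TIS sEV against Cont sEV ranged from 2, without TIS sEV replicate 1 or Cont sEV replicate 2, to 13. The 1 call in TIS sEV against No sEV ranged from 1 to 2, and in Cont sEV against No sEV calls ranged from 0 to 1. With a constant prior variance the calls were 2 in TIS sEV against Cont sEV and 0 in TIS sEV against No sEV, with only the libraries compared 3 and 2, without a filter 9 in TIS sEV against No sEV and 7 in Cont sEV against No sEV, and with a filter of 5 TPM 1 in Cont sEV against No sEV. The cause of these changes was not tested. Same-numbered libraries did not deviate together (correlations of -0.0479 to 0.0791, 0 of 9 pairs over 0.1), so the numbers were not taken as pairing. With the replicate number as a block 9 genes were called in TIS sEV against Cont sEV, none of them a member, and no member passed in any comparison. Summing doubled entries was not run, since 0 members had any. Precision is limited by 3 libraries a group and an unknown depth.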
